A study of Mus musculus with 6 samples.

Results

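Th17-like cells sorted as tdTomato+GFP+ from mouse colon were divided by whether a Foxp3 transcript was captured in them, and the other genes of the 2 sides were compared. The cells are those of the tdTomato+GFP+ gate that carry a hashed replicate, belong to the authors' phenograph clusters 1, 2, 3, 12 or 13, and hold at least 2000 unique molecular identifiers (UMIs, counts of distinct captured RNA molecules) outside the hashtag features. The sides were chosen by the measured Foxp3 count. The cells number 5390, of 18874 cells with a replicate and 8765 such cells in the gate. Foxp3-detected cells, with 1 or more Foxp3 UMIs, numbered 484, 1057 and 458 in replicates 1 to 3, and undetected cells, with 0 Foxp3 UMIs, numbered 750, 1774 and 867. Another 275 cells of these clusters fell under 2000 UMIs and were not used. Because the sides were made from the Foxp3 count, the Foxp3 level itself is not reported as a result.

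Foxp3, an X-linked gene, encodes the lineage factor of regulatory T (Treg) cells and maintains their suppressive program, which includes the IL-2 receptor and the checkpoint receptor CTLA-4. Th17 cells are a helper lineage of the gut that secretes IL-17A, IL-17F and CCL20. The 2 lineages share a requirement for TGF-β, and cells that combine Foxp3 with Th17 features are found in the normal colon. Flicr is a non-coding RNA that starts beside the Foxp3 promoter.

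All mice of the series carried Foxp3{delta}EGFPiCre/WT, in which an inserted Foxp3 allele drives EGFP and Cre beside an intact allele, together with R26lsl-tdTomato/wt, a reporter that Cre switches on. A T cell of a mouse heterozygous for an X-linked gene uses a single allele, so the tdTomato+GFP+ gate selects cells using the inserted allele now, and both sides compared here come from that gate. The other gate, tdTomato-GFP-, took CD4 T cells without either reporter, including Treg cells of the intact allele. The deposited gene counts do not separate Foxp3 UMIs of the inserted allele from those of the intact allele. Each gate was run as 1 lane with 3 hashed replicates, and the effects of gate and of lane cannot be told apart, whereas detected and undetected cells shared lane, replicate and library. The labels give triplicates but not whether each is 1 animal or a pool, and neither age nor treatment. A total of 174 cell barcodes occurred in both lanes, and 82 of the 5390 cells carry such a barcode.

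The cluster choice was checked against markers. Of 11 Th17 markers, 9 were higher in the Th17-like cells than in the Th2-like cells (cluster 0) of the same gate in all 3 replicates, and Ccr6 was lower in all 3 (57.2, 42.3 and 30.8 CPM, which are UMIs scaled to a common total, against 165, 60.9 and 43.3). Il17a averaged 16678 ± 1700 CPM in detected cells and 16475 ± 265 in undetected cells (SD, n = 3 each), against 418 ± 165 in Th2-like cells. Of 10 Treg markers other than Foxp3, 9 were lower in the Th17-like cells than in cluster 5 of the tdTomato-GFP- gate, which carries the Treg markers of the intact allele, in all 3 replicates. The tenth, Ctla4, was higher in the Th17-like cells in each replicate, with 3748, 3561 and 3299 CPM, against 3230, 2923 and 2473 in cluster 5. Lrrc32, which presents latent TGF-β on Treg cells, was at 0 in all 3 detected sums, against 0.414 ± 0.537 CPM in undetected cells and 70.1 ± 14.7 in cluster 5. Itgae, the αE integrin chain, stood at 1.53 ± 0.968 in detected cells and 2.08 ± 0.848 in undetected cells, against 249 ± 69.8 in cluster 5. Ikzf2, which encodes Helios, stood at 28.4 ± 2.39 and 30.8 ± 4.66 in detected and undetected cells, against 563 ± 138 in cluster 5. Both sides thus carried Il17a at the level of the Th17-like clusters and stood far below cluster 5 in Lrrc32, Itgae and Ikzf2.

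Foxp3 UMIs were sparse in these cells. The detected share was 39.2%, 37.3% and 34.6% in replicates 1 to 3, and 37.1% over all cells (exact 95% binomial interval 35.8% to 38.4%, which covers counting error only). Of the detected cells, 293, 655 and 294 had exactly 1 Foxp3 UMI and 26, 56 and 19 had more than 3, with a highest count of 10 in any cell. The split therefore runs between cells with 1 UMI, just inside the rule, and cells with none, just outside it.

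Depth moved the share. It was 29.9%, 29.4% and 28.0% in cells of at least 2000 and under 3000 UMIs, and 54.2%, 53.8% and 47.5% in cells of at least 6000. With each cell thinned to 2000 UMIs, 25.4%, 22.1% and 21.3% held a Foxp3 UMI, while a single common rate in all cells would give 28.0%, 24.5% and 23.9% in a Poisson count. A cell in the undetected side may thus hold Foxp3 RNA that was not captured, and 0 UMIs does not mark a cell without it. This is why totals were matched before genes were compared, except in some alternative settings described below.

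The share also differed between clusters and gates. Cluster 2 had 41.9% detected cells (95% interval 39.4% to 44.4%), cluster 1 39.6%, cluster 12 35.4%, cluster 13 29.6% and cluster 3 29.4% (27.0% to 31.9%), at median totals between 3273 and 3732 UMIs. In the tdTomato-GFP- gate the same clusters had 6.85% detected cells (75 of 1095) at a median of 3988 UMIs, and cluster 9 of that gate had 4.24% (28 of 661) at 3625, against a median of 3575.5 in the tdTomato+GFP+ Th17-like cells. In that gate cluster 1 alone had 2.59% (7 of 270) and cluster 15 had 3.82% (5 of 131), while cluster 5 had 79.3% of 1399 cells at 3476. Other clusters of that gate lay between these. Cluster 8 had 25.7% (143 of 556), cluster 11 19.4%, cluster 10 18.8% (at a median of 8308 UMIs) and cluster 4 17.3%. In the tdTomato+GFP+ gate, cluster 8 also had 25.7% (71 of 276), while cluster 6 had 37.2% and cluster 5 38.5%. The gates thus differed by cluster, and the Th17-like share was not particular to these clusters. Free RNA can give a Foxp3 UMI to a cell that does not make it, and the part of such UMIs in the detected side was not tested.

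**Figure D1:**
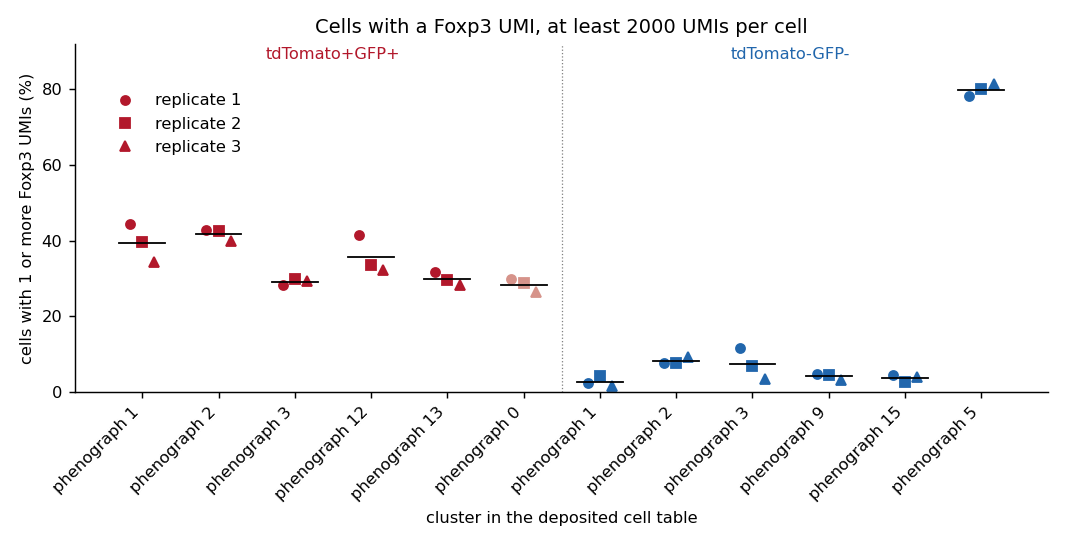
Percent of cells with at least 1 Foxp3 UMI (vertical axis) in selected clusters of the tdTomato+GFP+ gate (left) and the tdTomato-GFP- gate (right), for cells of at least 2000 UMIs. Clusters not drawn include cluster 8, with 25.7% of cells in either gate, and cluster 6, with 37.2% in the tdTomato+GFP+ gate. Points are hashed replicates and bars their means; the Th17-like tdTomato+GFP+ clusters lie between 28.2% and 44.4%, clusters 1, 2, 3, 9 and 15 of the tdTomato-GFP- gate between 1.61% and 11.6%, and cluster 5 between 78.1% and 81.5%.

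Receptor junctions show which cells were related by descent, since cells with the same α and β junctions in a replicate usually stem from a single ancestor. There were 33 clonotypes with at least 20 cells (12, 15 and 6 in replicates 1 to 3, 1488 cells in all), and every one of them held both detected and undetected cells. With Foxp3 captured this sparsely, clonotypes of that size would hold both kinds even if all their cells made Foxp3 alike. The count therefore cannot decide whether Foxp3 expression differs within a clonotype. The detected share ran from 15.0% to 54.5% with a median of 34.8%. The junctions of the largest clonotype of each replicate are printed because each was split between the sides, followed by a further clonotype of replicate 1 that shares its β junction with the largest and differs in α. They are the nucleotide junctions of the deposited receptor table, read 5′ to 3′ in coding direction.
Replicate 1, 128 cells, alpha: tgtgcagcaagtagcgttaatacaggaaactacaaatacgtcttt
Replicate 1, 128 cells, beta: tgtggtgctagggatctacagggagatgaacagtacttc
Replicate 1, 80 cells, alpha: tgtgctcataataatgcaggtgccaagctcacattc
Replicate 1, 80 cells, beta: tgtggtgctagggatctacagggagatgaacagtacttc
Replicate 2, 149 cells, alpha: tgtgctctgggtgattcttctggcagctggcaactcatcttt
Replicate 2, 149 cells, beta: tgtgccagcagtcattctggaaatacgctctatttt
Replicate 3, 79 cells, alpha: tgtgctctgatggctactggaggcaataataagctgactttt
Replicate 3, 79 cells, beta: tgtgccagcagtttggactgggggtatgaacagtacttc

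Foxp3 was detected in 39.1% of the 128-cell clonotype of replicate 1, in 38.8% of the 80-cell clonotype with the same β junction, in 34.9% of the 149-cell clonotype of replicate 2 and in 30.4% of the 79-cell clonotype of replicate 3. These shares lie close to those of their replicates as a whole, 39.2%, 37.3% and 34.6%. Among the matched cells with both chains, the share in clonotypes of 20 or more cells was 58.1%, 37.1% and 19.6% on the detected side and 65.9%, 31.8% and 24.8% on the undetected side, lower in 2 of 3 replicates (exact paired permutation test, two-sided, p = 0.75, where 0.25 is the smallest value 3 pairs allow).

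**Figure D2:**
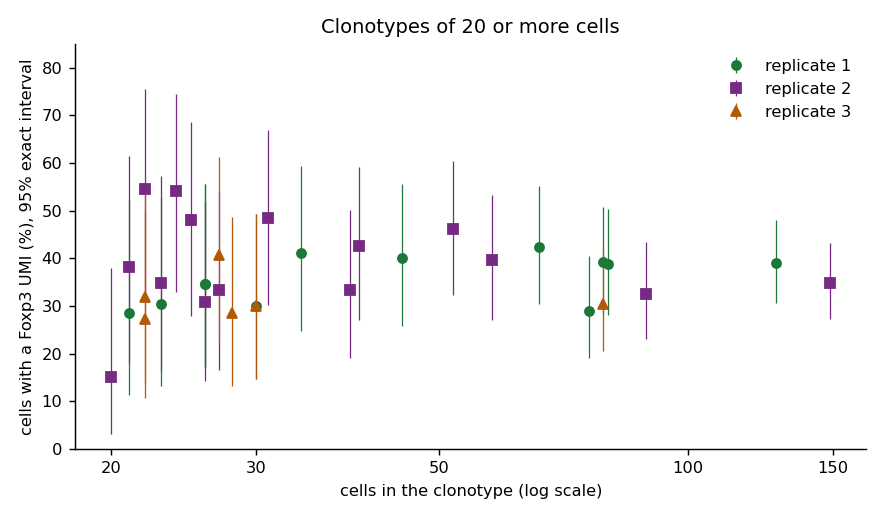
Percent of cells with a Foxp3 UMI in each of the 33 clonotypes of at least 20 Th17-like tdTomato+GFP+ cells, against the number of cells in the clonotype, by replicate. All points lie between 15.0% and 54.5%, so no large clonotype is wholly on a single side of the split, which sparse capture of Foxp3 alone would give.

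For the comparison of genes, each detected cell was paired with the undetected cell of its replicate nearest in total UMIs, which left 471, 1011 and 448 cells per side and 8307913 UMIs on the detected side against 8300965 on the undetected side. UMIs were summed per replicate and side and tested with the replicate as a block in edgeR's quasi-likelihood test, and values below are CPM after library scaling. In such sums, fewer cells with an RNA and less RNA per cell cannot be told apart. Of 9101 genes tested, 108 (1.19%) were higher and 70 (0.769%) lower in detected cells at a Benjamini-Hochberg adjusted p below 0.05, which is 1.96% in either direction. The differences were small, with 88 of the 178 called genes under 1.2-fold and 29 at a log2 fold change of at least 0.5 in size. For 99 called genes the replicates of the sides did not overlap, which held for 11.5% of all genes tested. The set of called genes depended on which undetected cells were drawn as partners: a second draw called 104 genes, 97 of them shared. Of the 178 genes, 66 were called in at least 10 of 22 alternative settings. Leaving out replicate 1, 2 or 3 gave 68, 108 and 162 called genes. DESeq2 with the same block called 14 (117 at an unadjusted p below 0.05), limma-voom 193, edgeR without the block 0 (443 at an unadjusted p below 0.05), and edgeR with 1 cell per clonotype and side 2. That last setting kept only 491 cells per side, against 1930 in the main comparison. It had 484 of 6699 genes at an unadjusted p below 0.05. Ctla4, Icos, Cytip, Vps37b, Bhlhe40, Hspa8, Tnfaip3, Ifngr1, Fos, Gzmb and Ahnak, described below, were among the 14 of DESeq2, and Flicr and Ifng were not.

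Flicr had the largest rise among the lineage genes that were named whatever their values. It stood at 32.9, 29.1 and 31.2 CPM in the 3 detected sums, against 18.1, 14.2 and 19.7 in the undetected sums. The sides did not overlap, and the log2 fold change was 0.89 ± 0.16 (SE; edgeR adjusted p = 6.15e-06). In the GENCODE M21 annotation of GRCm38, Flicr (chromosome X, 7573600 to 7581027) shares 7384 bases on the same strand with Foxp3 (7573644 to 7595245), so reads there cannot be told apart and the Flicr value may hold Foxp3 reads.

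Among the Treg core genes, 3 of 22 tested members rose and 2 fell, with a median log2 fold change of 0.04, against 0.0039 over all genes. Over all genes tested 1.19% were higher and 0.769% lower, the background for this and each later list count. Ctla4, the checkpoint receptor that removes CD80 and CD86 from antigen-presenting cells, stood at 4168, 3817 and 3521 CPM in detected cells, against 3546, 3431 and 3222 in undetected cells, a log2 fold change of 0.17 ± 0.03 (edgeR adjusted p = 2.98e-06). Each detected sum was above its own replicate's undetected sum, although the ranges overlap. Without replicate 1 the Ctla4 call was lost (edgeR adjusted p = 0.0881).

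Icos, a costimulatory receptor (RefSeq GRCm38.p6, chromosome 1, 60960773 to 61000322; Ctla4 at 60909025 to 60915832), stood at 929, 783 and 858 in detected cells, against 670, 726 and 694 in undetected cells (log2 fold change 0.28 ± 0.04, edgeR adjusted p = 1.16e-09). All 3 detected sums lay above all 3 undetected sums, and the call held without any single replicate. Tnfrsf1b, the TNF receptor TNFR2, also rose, by 0.21 ± 0.06 on the log2 scale, a call lost without replicate 1 or 3 (edgeR adjusted p = 0.299 and 0.372).

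The members of the Treg core list that fell were Tnfrsf9 and Cd83. Tnfrsf9, the costimulatory receptor 4-1BB, stood at 90.5, 51.9 and 53.1 in detected cells, against 122, 61.0 and 64.0 in undetected cells (log2 fold change -0.31 ± 0.09, edgeR adjusted p = 0.0397). It was lower in each replicate, but the ranges overlap and the call was lost when any 1 of the replicates was left out (edgeR adjusted p 0.0633 to 0.546). The call of Cd83, a surface protein of activated lymphocytes, was lost without replicate 2 or 3 (edgeR adjusted p = 0.202 and 0.618).

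Other defining Treg genes did not pass. Il2ra, the IL-2 receptor α chain, stood at 147, 118 and 121 in detected cells, against 139, 98.5 and 102 in undetected cells, higher in each replicate with overlapping ranges (log2 fold change 0.20 ± 0.07, edgeR adjusted p = 0.174). It did pass when cells with at least 2 Foxp3 UMIs were used (0.42), when totals were kept between 2000 and 6000 UMIs (0.38) and with no matching (0.26). Ikzf2 stood at 26.2, 30.8 and 28.4 in detected cells, against 25.8, 32.8 and 34.5 in undetected cells, with a log2 fold change of -0.11 ± 0.14. Il10, the suppressive cytokine, had 157, 145 and 158 in detected cells, against 146, 150 and 140 in undetected cells. Lrrc32 and Itgae were too low to be tested.

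Among 18 tested genes of effector and tissue Treg cells, 3 rose (Gzmb, Bhlhe40 and Ccr2) and none fell. Gzmb, the cytotoxic protease granzyme B, stood at 486, 542 and 1117 in detected cells, against 313, 352 and 902 in undetected cells, a log2 fold change of 0.51 ± 0.04 (edgeR adjusted p = 9.95e-30). Replicate 3 stood apart on both sides, so the ranges overlap. With a second draw of partners the Gzmb difference no longer passed (0.18, edgeR adjusted p = 0.323). Within clonotypes present on both sides, where totals were matched less closely, the Gzmb difference was 0.07 (edgeR adjusted p = 0.954). The Ccr2 call was lost without replicate 1 (edgeR adjusted p = 0.0900).

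The defining Th17 cytokine genes Il17a and Il17f did not pass the test in either direction. Il17a stood at 18736, 16188 and 15326 CPM in detected cells, against 16976, 16638 and 16286 in undetected cells, higher in replicate 1 and lower in the other two, with a log2 fold change of 0.0050 ± 0.03. Il17f, its partner cytokine, stood at 2585, 1904 and 1959 in detected cells, against 2493, 1774 and 1984 in undetected cells (0.05 ± 0.03, edgeR adjusted p = 0.611). Neither passed in the alternative settings.

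Of 7 tested Th17 cytokine genes, none rose and 2 fell, Ccl20 and Csf2, with a list median of -0.10. Ccl20, which attracts CCR6-bearing cells, stood at 2958, 2881 and 3549 in detected cells, against 3274, 3089 and 3704 in undetected cells (log2 fold change -0.10 ± 0.03, edgeR adjusted p = 0.0346). It was lower in each replicate by a small margin, and the call was lost without replicate 1 or 2 (edgeR adjusted p = 0.554 and 0.437). Csf2, the cytokine GM-CSF, stood at 3.09, 5.10 and 13.7 in detected cells, against 10.8, 15.5 and 12 in undetected cells. It was lower in replicates 1 and 2 but not in 3, and the call (log2 fold change -1.03 ± 0.25) was lost without either of those (edgeR adjusted p = 0.117 and 0.755). Il22 differed between replicates in direction, with 17.5, 44.4 and 82.1 in detected cells, against 44.4, 91.3 and 57.5 in undetected cells. It passed without replicate 3 (-1.10, edgeR adjusted p = 4.31e-17) and without clusters 12 and 13 (-0.74), not otherwise.

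Of 13 tested transcription factors of the Th17 lineage, 2 rose, Rora and Bhlhe40. Rora, a nuclear receptor of the lineage, stood at 430, 360 and 322 in detected cells, against 329, 329 and 300 in undetected cells (log2 fold change 0.20 ± 0.05, edgeR adjusted p = 0.00375). The difference was largest in replicate 1, and without it the value was 0.12 (edgeR adjusted p = 0.546). Bhlhe40, a repressor of Il10 in helper T cells, stood at 3204, 2820 and 2530 in detected cells, against 2754, 2590 and 2242 in undetected cells (0.17 ± 0.03, edgeR adjusted p = 7.51e-06). It was higher in each replicate and was called in 16 of 22 alternatives, but not without replicate 1 (edgeR adjusted p = 0.0748). Maf, which drives Il10, was higher in each replicate (683, 708 and 797, against 597, 674 and 726) and missed the threshold (0.13 ± 0.04, edgeR adjusted p = 0.0593).

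Among 12 tested Th17 receptors, Il18r1 and Cxcr6 rose and none fell. Cxcr6, a chemokine receptor of tissue-resident T cells, stood at 915, 865 and 864 in detected cells, against 751, 800 and 743 in undetected cells (log2 fold change 0.20 ± 0.04, edgeR adjusted p = 3.94e-05), with no overlap of the sides. Without replicate 1 it did not pass (edgeR adjusted p = 0.120). Il18r1 failed without replicate 1 or 2 (edgeR adjusted p = 0.568 and 0.0542).

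Of 12 tested Th1 genes none rose and 2 fell, Ifng and Ccl4, and the list median was -0.18. Ifng, the signature cytokine of Th1 cells, stood at 86.4, 98.5 and 126 CPM in detected cells, against 98.1, 133 and 186 in undetected cells. Each detected sum was below that of its replicate while the ranges overlap, and the log2 fold change was -0.42 ± 0.07 (edgeR adjusted p = 6.15e-06), a call that held without any single replicate. Tbx21, the Th1 transcription factor T-bet, pointed the same way in each replicate (17.0, 22.4 and 25.2, against 20.1, 31.5 and 29.5) and did not pass (-0.38 ± 0.15, edgeR adjusted p = 0.241).

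Ifngr1, the ligand-binding chain of the interferon-γ receptor (chromosome 10, 19591949 to 19610229), differed in the opposite direction to Ifng. It stood at 787, 689 and 706 in detected cells, against 533, 577 and 562 in undetected cells (log2 fold change 0.37 ± 0.04, edgeR adjusted p = 8.57e-17). The sides did not overlap, and the gene was called in 19 of 22 alternatives.

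The other genes most often called across the alternatives were picked after their values were seen. Vps37b, a subunit of the ESCRT-I sorting complex (chromosome 5, 124004641 to 124032260), stood at 266, 247 and 223 in detected cells, against 182, 203 and 146 in undetected cells, a log2 fold change of 0.44 ± 0.06 (edgeR adjusted p = 1.52e-10; called in 19 of 22 alternatives). Cytip, an adaptor that regulates T-cell adhesion, stood at 1202, 1108 and 1021 in detected cells, against 961, 954 and 944 in undetected cells (0.22 ± 0.04; 19 of 22). Tnfaip3, which encodes the NF-κB inhibitor A20, stood at 1482, 1487 and 1511 in detected cells, against 1207, 1341 and 1295 in undetected cells (0.22 ± 0.03; 18 of 22). In all of these the 3 detected sums lay above the 3 undetected sums.

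Ahnak, a large scaffold protein, was higher in each replicate with 948, 1128 and 1072 in detected cells, against 775, 948 and 923 in undetected cells (log2 fold change 0.25 ± 0.04; 18 of 22). Dusp5, a phosphatase of ERK, stood at 375, 320 and 332 in detected cells, against 296, 281 and 257 in undetected cells (0.28 ± 0.05; 17 of 22). Ccr4, a chemokine receptor shared by Th2, Th17 and Treg cells, stood at 143, 121 and 118 in detected cells, against 98.7, 91.1 and 97.9 in undetected cells (0.41 ± 0.08; 16 of 21). The sides did not overlap for Dusp5 and Ccr4.

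Signalling lists moved in few of their members. Of 17 tested genes of the IL-2 and STAT5 pathway, Cish, Pim1 and Gzmb rose and none fell. Cish, a feedback inhibitor induced by STAT5, stood at 307, 287 and 289 in detected cells, against 265, 257 and 223 in undetected cells (log2 fold change 0.23 ± 0.05, edgeR adjusted p = 0.00168), a call lost without replicate 3 (edgeR adjusted p = 0.15). Of 14 tested TGF-β genes, Tgif1 and Ldlrad4, which both restrain SMAD signalling, rose, with a list median of 0.15. The Tgif1 call was lost without replicate 1 (edgeR adjusted p = 0.628), and the Ldlrad4 call was lost without any 1 of the replicates (edgeR adjusted p 0.0889 to 0.499). Of 20 tested genes of T-cell receptor activation, Nr4a3, Tnfaip3 and Dusp5 rose and Myc fell, and of 15 NF-κB genes Tnfaip3 and Birc3 rose. The calls of Nr4a3 and Birc3 were lost without replicate 1 (edgeR adjusted p = 0.531 and 0.589) and that of Myc without replicate 2 (0.833). Of 10 inhibitory receptors Ctla4 rose and Lag3 fell, and of 23 cell cycle genes Mcm3 and Dut fell. The calls of Lag3 and Mcm3 were lost without replicate 1 (edgeR adjusted p = 0.0685 and 0.200), and that of Dut without any 1 of the replicates (0.117 to 0.384). Of 14 tested genes picked on these same samples as higher in the tdTomato+GFP+ gate, Igfbp7 and Ccl20 fell and none rose. In edgeR no gene passed among 11 Tfh, 11 naive, 27 oxidative phosphorylation, 19 cholesterol synthesis and 86 ribosomal protein genes. At an unadjusted p below 0.05 there were 1, 1, 12, 2 and 8 of them in these lists, against 996 of 9101 over all genes. Oxidative phosphorylation genes, with 12 of 27 and a list median of -0.08, stood above that share, and the other lists did not. DESeq2 called none of them, and limma-voom called 3 ribosomal protein genes.

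Immediate early and heat shock genes are known to respond to handling of the tissue as well as to stimulation. Of 20 tested genes of AP-1 and stress, 6 fell (Fos, Jun, Zfp36, Hspa8, Hsp90aa1 and Dnajb1) and 2 rose (Fosl2 and Jund), with a median of -0.11. Hspa8, a constitutive chaperone, stood at 2225, 3468 and 4377 in detected cells, against 2834, 3915 and 4778 in undetected cells (log2 fold change -0.21 ± 0.03, edgeR adjusted p = 1.16e-09). It was lower in each replicate, while the replicates themselves differed by more than the sides. Dnajb1, a co-chaperone, stood at 99.8, 164 and 185 in detected cells, against 145, 236 and 202 in undetected cells (-0.41 ± 0.06), and did not pass without replicate 2 (edgeR adjusted p = 0.0775).

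Fos, an AP-1 subunit, stood at 1660, 1921 and 2139 in detected cells, against 1794, 2246 and 2372 in undetected cells (log2 fold change -0.17 ± 0.03, edgeR adjusted p = 3.52e-05), and did not pass without replicate 2 (edgeR adjusted p = 0.239). Fosl2, another AP-1 subunit and a restraint on the Th17 program, stood at 420, 325 and 274 in detected cells, against 298, 282 and 243 in undetected cells (0.29 ± 0.05), and did not pass without replicate 1 (edgeR adjusted p = 0.145). Both were shifted the same way in each replicate with overlapping ranges. Jun and Zfp36 were lost without replicate 1 (edgeR adjusted p = 0.714 and 0.419) or 2 (0.702 and 0.490), Hsp90aa1 without replicate 1 (0.324), and Jund without any 1 of the replicates (0.0809 to 0.634). Of these AP-1 and stress calls, that of Hspa8 alone held without each replicate in turn. The part of tissue handling in these differences was not tested.

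Glycolysis genes fell in 5 of 15 tested members (Aldoa, Tpi1, Gapdh, Pgk1 and Pkm), against 0.769% lower over all genes tested, and rose in none. Aldoa, the aldolase of glycolysis, stood at 998, 918 and 984 in detected cells, against 1167, 1053 and 1026 in undetected cells (log2 fold change -0.17 ± 0.04, edgeR adjusted p = 0.000543), with no overlap. Gapdh stood at 1402, 1324 and 1269, against 1547, 1486 and 1377 in undetected cells (-0.14 ± 0.03, edgeR adjusted p = 0.00215). Aldoa and Gapdh did not pass without replicate 1 (edgeR adjusted p = 0.193 and 0.117) or 2 (0.233 and 0.299). Without replicate 1 none of the 5 glycolysis calls held: the edgeR adjusted p was 0.436 for Tpi1, 0.443 for Pgk1 and 0.308 for Pkm. Tpi1 also failed without replicate 2 (0.105), and Pkm without replicate 2 (0.331) or 3 (0.110). The shares of reads from processed pseudogenes of Gapdh are uncertain. DESeq2 called no gene of the glycolysis, Th1, Th17 cytokine, Th17 receptor, TGF-β and cell cycle lists. It called 3 AP-1 and stress genes, and 2 each of the Treg core and the effector and tissue Treg lists. The lists of Th17 transcription factors, T-cell receptor activation, inhibitory receptors, IL-2 and STAT5, and NF-κB each had 1 DESeq2 call.

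The largest differences by size, among called genes with the same direction in all 3 replicates, lay mostly in genes of low count. The 12 largest rises were those of Tcrg-V6, Trav19, Flicr, Zfp983, Polr3b, Gm26885, AW549877, Strn3, Gzmb, Spock2, Rasgrp2 and Trp53bp1, with log2 fold changes between 1.22 and 0.44. Strn3, a scaffold of the STRIPAK phosphatase complex, stood at 28.8, 26.4 and 25.7 in detected cells, against 15.5, 17.1 and 17.5 in undetected cells, without overlap (0.67 ± 0.16, edgeR adjusted p = 0.00361). Rasgrp2, an activator of Rap1, stood at 36.5, 46.1 and 50.3 in detected cells, against 29.4, 33.3 and 31.7 in undetected cells (0.48 ± 0.12). The Strn3 call was lost without replicate 1 or 2 (edgeR adjusted p = 0.0983 and 0.107) and that of Rasgrp2 without replicate 2 or 3 (0.200 and 0.113). Of the 12 rises, 10 lost their call when 1 of the replicates was left out, all but Flicr and Gzmb.

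The 12 largest falls were those of Ccl4, Fgf16, Axl, Trav13-4-dv7, Trav8-1, Rgs16, Cxcl3, C2cd4b, Dusp14, Marcksl1, Gm28592 and Slc15a3, between -1.51 and -0.50, and 9 of the 12 lost their call when 1 of the replicates was left out, all but Ccl4, Cxcl3 and Trav13-4-dv7. Ccl4, a chemokine of activated lymphocytes, stood at 3.09, 5.55 and 10.9 in detected cells, against 11.4, 13.9 and 32.8 in undetected cells (log2 fold change -1.51 ± 0.24, edgeR adjusted p = 4.09e-07). Cxcl3, a neutrophil-attracting chemokine, stood at 40.1, 82.7 and 191 in detected cells, against 67.7, 170 and 255 in undetected cells (-0.75 ± 0.07, edgeR adjusted p = 1.32e-20). Both were lower in each replicate, and both fell short of the threshold within clonotypes present on both sides (-0.23 and -0.13, edgeR adjusted p = 0.954 and 0.809). That setting kept 1085 cells per side, against 1930 in the main comparison. It also matched totals less closely, with 4262229 UMIs on the detected side and 4070828 on the undetected side.

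Axl, a receptor tyrosine kinase, stood at 5.14, 5.32 and 3.83 in detected cells, against 12.9, 11.5 and 9.30 in undetected cells (log2 fold change -1.19 ± 0.28, edgeR adjusted p = 0.00287), with no overlap, and did not pass without replicate 1 or 2 (edgeR adjusted p = 0.0615 and 0.0931). Rgs16, a regulator of G-protein signalling, stood at 8.74, 13.8 and 7.11 in detected cells, against 20.1, 18.7 and 19.7 in undetected cells (-0.83 ± 0.20). It did not pass without replicate 1 or 3 (edgeR adjusted p = 0.142 and 0.156). Both lists hold T-cell receptor segments, which mark clonotypes, and within clonotypes on both sides the adjusted p from edgeR was 0.972 for Trav19 and 0.984 for Trav13-4-dv7. That setting pairs cells with the same junctions, which balances segment use between the sides in advance. It therefore cannot decide what lies behind the differences in these segments. Such segments belong to multigene families, and their counts are uncertain.

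The amount of Foxp3 captured made a further contrast. Cells with exactly 1 Foxp3 UMI and cells with at least 2 were each set against matched undetected cells, and the log2 fold change of Flicr was 0.68 with 1 UMI and 1.24 with at least 2. Because Flicr overlaps Foxp3 on the same strand and may hold Foxp3 reads, its values here are not independent of the split. Vps37b had 0.22 with 1 UMI and 0.75 with at least 2, Fosl2 0.12 and 0.57, Icos 0.15 and 0.38, and Ctla4 0.10 and 0.24. Ifng had -0.23 with 1 UMI and -0.69 with at least 2, and Hspa8 -0.13 and -0.35. In these genes the value was farther from 0 with at least 2 UMIs, whereas Ahnak had 0.24 with 1 UMI and 0.15 with at least 2. With 1 UMI 21 genes were called and with at least 2 UMIs 108. The 2 contrasts draw undetected cells from the same pool, and the difference between them was not tested.

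**Figure D3:**
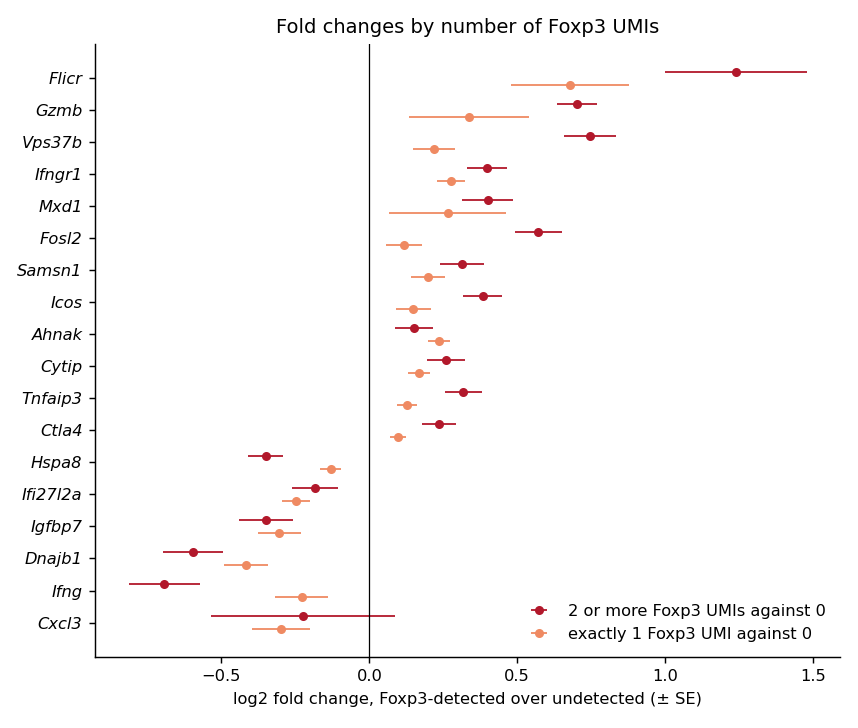
Log2 fold change over matched undetected cells (points, with bars of 1 SE) for cells with at least 2 and with exactly 1 Foxp3 UMI, in genes of smallest p in the comparison, chosen after their values were seen. Flicr, Vps37b, Fosl2, Icos, Ctla4, Ifng and Hspa8 lie farther from 0 with at least 2 UMIs, and Ahnak, Ifi27l2a and Cxcl3 do not. Flicr may hold Foxp3 reads, so its points are not independent of the split.

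The sides differed in make-up as well. Cluster 3 took 18.3%, 20.7% and 20.1% of matched detected cells, against 30.8%, 27.0% and 25.0% of undetected cells, and cluster 2 took 24.2%, 32.6% and 37.1%, against 20.2%, 27.9% and 28.1%. Both shifts went the same way in all 3 replicates, where the exact paired permutation test cannot go below 0.25. With partners drawn from the same cluster, 63 genes were called. Malat1, a nuclear RNA whose share rises with nuclear content of a library, took 0.711%, 0.714% and 0.761% of UMIs in detected cells, against 0.636%, 0.641% and 0.673% in undetected cells. Called genes that were higher had a median genomic span of 25.4 kb and those lower 6.67 kb, against 22.5 kb over all tested genes. Genes per cell (1711.5 and 1709.5, means of replicate medians) and the mitochondrial share (0.717% and 0.725%) were close. The part of cluster make-up, of the Malat1 share and of gene length in the differences was not tested.

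Markers of other cells were summed on each side. Of 9 tested myeloid markers 2 were higher in detected cells (Lyz2 and Cd74, lost without replicate 1 with edgeR adjusted p = 0.490 and 0.484, Cd74 also without replicate 2 with 0.745), and the summed 12 myeloid markers ran from 670 to 742 CPM in detected cells and from 608 to 694 in undetected cells. The 11 stromal and endothelial markers summed to 287, 217 and 141 in detected cells, against 419, 276 and 150 in undetected cells, lower in each replicate, with Igfbp7 called lower. This sum mostly follows Igfbp7, with 1553 UMIs in detected and 2040 in undetected cells. Pecam1 had 237 and 282, and the fibroblast collagen gene Col1a1 only 3 and 6. The innate-like T cell markers summed to 163, 155 and 162 in detected cells, against 123.5, 137 and 146 in undetected cells, higher in each replicate, with Il18r1 called higher. That sum mostly follows Il18r1 (1031 UMIs in detected and 851 in undetected cells), while Zbtb16 had 8 and 9. The gamma delta T cell markers ran from 241 to 357 in detected cells and from 306 to 338 in undetected cells. The 10 B and plasma cell markers stood at 82.1, 84.6 and 38.2 in detected cells, against 46.4, 81.6 and 48.1 in undetected cells. All immunoglobulin genes with Jchain summed to 215, 341 and 99.4, against 131, 241 and 117 (exact paired permutation test, p = 0.5). Both sums were higher in replicates 1 and 2 and lower in 3. The segment Igkv1-110 was called higher, which did not hold without replicate 2. The 12 epithelial markers ran from 6.87 to 16.8 in detected and from 9.19 to 23.3 in undetected cells. Their part in the results was not tested.

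Inside single clusters fewer genes were called: 39 of 7633 (0.511%) in cluster 1, 37 of 6760 (0.547%) in cluster 2 and 9 of 5538 (0.163%) in cluster 3. Leaving out a replicate gave 26 to 38 called genes in cluster 1, 9 to 18 in cluster 2 and 1 to 14 in cluster 3. Fos was called lower in all 3 of them. Ifngr1 was called higher in clusters 1 and 2. Ifng was called lower in cluster 1 (-0.71) and cluster 2 (-0.63) and had -0.05 in cluster 3, a difference between clusters that was not tested.

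The same split was made in other cells for reference. In Th2-like cells of the same gate (28, 134 and 69 cells per side), 11 of 4104 genes (0.268%) were called, led by Trbv13-3, Ccl20, Gpx1 and Il17a among the rises and Ccl5, Cxcr3, Gramd3, Trbv13-2 and Ly6a among the falls (10 to 22 called without 1 of the replicates). Il17a there stood at 760, 672 and 279 CPM in detected cells, against 339, 386 and 205 in undetected cells (log2 fold change 0.80 ± 0.13, edgeR adjusted p = 0.000464), while its value in Th17-like cells was 0.0050. An interaction term found 11 of 8982 genes (0.122%) whose effect differed between Th17-like and Th2-like cells, with Il17a (difference -0.78) and Ccl20 (-1.06) among them. Of the 11, 2 were still called without replicate 1, 2 without replicate 2 and 11 without replicate 3. The interaction of Il17a was lost without replicate 1 or 2 (edgeR adjusted p = 0.143 and 0.193) and that of Ccl20 without replicate 2 (0.241), as were their calls within Th2-like cells (0.157 for Il17a and 0.636 for Ccl20 without replicate 2).

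In cluster 5 of the tdTomato-GFP- gate (161, 90 and 39 cells per side), 91 of 4949 genes (1.84%) were called, 28 higher (0.566%) and 63 lower (1.27%). The largest rises by the same rule were those of Trav7-4, C2cd4b, Tff1, Gpr55 and Usp19, and the largest falls those of Il13, Ccl1, Myo6, Ifng and Epas1. Ifng stood at 22.1, 31.3 and 43.1 in detected cells, against 224, 306 and 109 in undetected cells, a log2 fold change of -3.02 ± 0.27 (edgeR adjusted p = 1.25e-08). Ikzf2 stood at 359, 813 and 883 in detected cells, against 286, 389 and 326 in undetected cells (0.87 ± 0.16), and Tnfrsf9 at 812, 1195 and 1041, against 551, 550 and 312 (1.02 ± 0.16). Both rose in cluster 5 where Foxp3 was detected (edgeR adjusted p = 0.00522 and 0.00291). Both calls were lost without replicate 2 (edgeR adjusted p = 0.170 and 0.0773), and the Ifng call held without any single replicate. Leaving out a replicate gave 32 to 177 called genes in cluster 5. The interaction term found 156 of 8918 genes (1.75%) whose effect differed between the Th17-like cells and cluster 5, among them Ikzf2, Tnfrsf9 and Ifng. Of the 156, 51, 59 and 118 were still called without replicates 1, 2 and 3. The interactions of Ikzf2 and Tnfrsf9 were lost without replicate 2 (edgeR adjusted p = 0.464 and 0.322), and that of Ifng held.

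**Figure D4:**
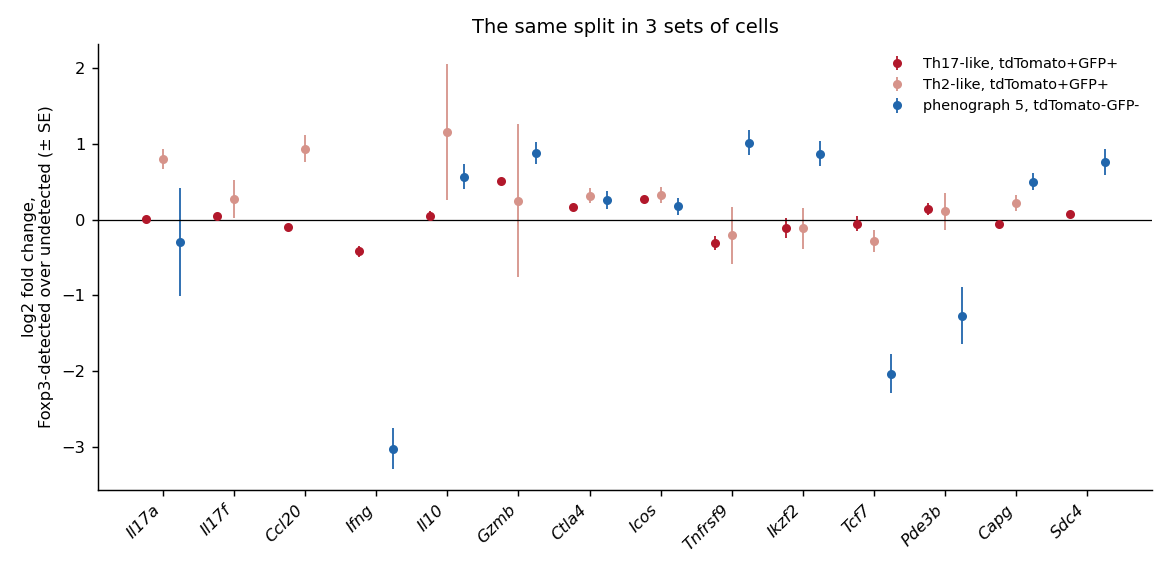
Log2 fold change of Foxp3-detected over undetected cells (points, with bars of 1 SE) for 14 genes in Th17-like tdTomato+GFP+ cells, Th2-like tdTomato+GFP+ cells and cluster 5 tdTomato-GFP- cells. Ifng is lower in both classes where this split was tested for it (-0.42 in Th17-like cells and -3.02 in cluster 5), and Ikzf2 (0.87) and Tnfrsf9 (1.02) are called higher in cluster 5. In Th2-like cells Ifng had 4 UMIs in detected and 32 in undetected cells. Its difference between Th17-like and Th2-like cells did not pass (2.59, edgeR adjusted p = 0.121). A gene without a point was not tested there.

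Among tdTomato-GFP- cells of the Th17-like clusters, only 45, 17 and 11 per side could be matched. A single gene of 1599 (0.0625%) was called, Gzmb, with 1262, 201 and 650 CPM in detected cells, against 81.6, 43.1 and 63.0 in undetected cells (log2 fold change 3.63 ± 0.30, edgeR adjusted p = 0.00588). Gzmb was higher in each detected sum, the call held without any single replicate, and it was lost without the replicate block (edgeR adjusted p = 0.276). The sums were small, with 259223, 90779 and 63193 UMIs on the detected side and 259797, 91268 and 62849 on the undetected side. At this size Gzmb reached the count filter through its detected sums alone, so the call is a description and not support for a difference. With no filter 42 genes were called, Gzmb among them. The difference between the gates was not tested.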

How the data were processed

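Colonic lamina propria CD4 T cells were sorted into 2 gates, and the triplicates of each were hashed and run on 1 10x lane per the labels' protocols. Those give the chemistry as either 3′ v3 or 5′ v2. Tools named in the submitters' processing notes are Cell Ranger and Scanpy 1.7.2, with the builds mm10 and GRCm38. Cell filters, clustering settings and the hashtag rule are not given in the sources used here. The deposited counts are whole UMI numbers per cell and gene (15473 genes, 23595 cells), and the authors' deposited cell table gives gate, replicate and cluster. The 4721 cells without a replicate and the hashtag features were left out. No doublet caller was run.

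Cells were matched 1 to 1 within a replicate on total UMIs outside hashtags (5% tolerance, no replacement), summed, and tested with edgeR 4.0.16 in R 4.3.3 (robust glmQLFit and glmQLFTest, TMM, filterByExpr with a minimum count of 10, replicate block, two-sided, Benjamini-Hochberg over all genes tested, threshold 0.05, Foxp3 left out). Median totals per cell were 3894, 3757 and 3564.5 UMIs on the detected side and 3888, 3757 and 3562 on the undetected side. Deviations of sums of the same replicate correlated at 0.540, 0.334 and 0.449 over 6256 genes, so the replicate number pairs the sums. CPM are TMM-scaled UMIs, except in the marker checks, which use plain totals. Intervals for shares are exact binomial and cover counting error only. With the replicate block, the edgeR p-values measure how steady the difference between the sides was from replicate to replicate. The spread between the replicates themselves is taken up by the block and does not enter these p-values. The choice of undetected partners does not enter them either. Because nothing says that replicates are separate animals, these p-values describe these samples only.

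Genes named are the 12 largest rises and falls among called genes moving the same way in 3 replicates, the 5 largest in each comparator, a fixed set of lineage genes, and list members that passed; genes chosen after their values were seen are marked so. The members, gene lists and tests were chosen with earlier results of these data known. Alternatives included DESeq2 1.42.0, limma 3.58.1 (voom), other matching, depth limits and clonotype restrictions. The setting within the same clonotypes paired cells nearest in total UMIs without the 5% tolerance.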

Additional observations from a re-analysis of the deposited data

Results flagged for a closer look

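The effect of Foxp3 detection was compared between Th17-like tdTomato+GFP+ cells and other classes with an interaction term in edgeR, and the genes below differed at an adjusted p below 0.05. They were taken from the named genes only, which include the largest rises and falls of each class, chosen by values in these same sums. They are 5 of the 11 genes called against Th2-like cells and 17 of the 156 called against cluster 5. Each value is the log2 fold change in Th17-like cells minus that in the other class. Against Th2-like cells of the same gate the difference was -1.06 for Ccl20, -0.79 for Gpx1 (a glutathione peroxidase), -0.78 for Il17a, 0.56 for Ly6a and 0.85 for the receptor segment Trbv13-2. Of these 5 calls, Ccl20 was kept without replicate 1, Gpx1 and Ly6a without replicate 2, and all 5 without replicate 3.

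Against cluster 5 of the tdTomato-GFP- gate, genes with a higher value in Th17-like cells were Ifng (2.63), Ccl20 (2.14), Tcf7 (1.98), which encodes the naive and memory factor TCF-1, Pde3b (1.4), Epas1 (2.79) and Myo6 (3.22). Il17f (4.28) and Csf2 (7.38) belong here too. Most of these values rest on few counts in cluster 5. Detected and undetected cells there had 17 and 79 UMIs of Ccl20, 10 and 74 of Epas1, 10 and 83 of Myo6, and 21 and 49 of Pde3b. For Ccl20 the replicates had 10 and 7, 7 and 67, and 0 and 5. Without replicate 2 the Ccl20 difference was 0.21 (edgeR adjusted p = 0.977). In cluster 5, Il17f had 2 UMIs in detected cells and 38 in undetected cells, and Csf2 had 0 and 29, at least 9.66-fold lower against a floor of 3 UMIs over the group. The fitted value of Csf2 depends on the prior count and is no bound.

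Genes with a lower value in Th17-like cells than in cluster 5 were Axl (-3.31), C2cd4b (-2.25), Gpr55 (-1.36), Tnfrsf9 (-1.26), Usp19 (-1.07), Ikzf2 (-0.95), Sdc4 (-0.67), Il10 (-0.59) and Capg (-0.56). In cluster 5, Axl had only 36 UMIs in detected and 8 in undetected cells, and C2cd4b 75 and 25. Of the 17 differences from cluster 5, 11 were still called without replicate 1, 9 without replicate 2 and 16 without replicate 3. Those of Ifng, Tcf7, Epas1, Myo6, Il17f and C2cd4b held in all 3 cases. Gate and lane differ between these 2 classes as well and cannot be told apart from the class.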

How the results depend on the processing

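Against 178 called genes, 2 were called with 1 cell per clonotype, 9 when tested against a 1.2-fold change, 14 with DESeq2, 21 with exactly 1 Foxp3 UMI, 27 with cells thinned to 2000 UMIs, 46 without the largest clonotype of each replicate, 63 with at least 3000 UMIs and likewise 63 with matching by cluster, 73 without clusters 12 and 13, 76 within the same clonotypes, 82 with sides set from thinned counts, 104 with a second seed, 108 with at least 2 Foxp3 UMIs and 111 with no matching. Without the replicate block edgeR called 0 (443 at an unadjusted p below 0.05). Leaving out a replicate gave 68 to 162, with 50, 77 and 106 of the 178 remaining without replicates 1, 2 and 3. In Th2-like cells no filter gave 26, no block 1 and a left-out replicate 10 to 22. In cluster 5 no filter gave 157, no matching 159, no block 18 and a left-out replicate 32 to 177. In Th17-like tdTomato-GFP- cells these were 42, 33, 5 and 1 to 6. The interaction with Th2-like cells gave 28 with no filter, 0 with no block (343 at an unadjusted p below 0.05) and 4 to 46 with a replicate left out, and that with cluster 5 gave 242 with no matching, 7 with no block and 82 to 183. Clusters 1, 2 and 3 gave 26 to 38, 9 to 18 and 1 to 14 with a replicate left out. The detected share was 22.9% when thinned, 40.0% with at least 3000 UMIs and 36.0% to 38.3% with a replicate left out, and the side differences were then 4.39 to 6.84 percentage points for cluster 2, -9.43 to -5.62 for cluster 3 and 0.0739 to 0.0813 for Malat1.

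Directions turned for Polr3b (-0.0285) and Zfp36 (0.0389) with sides set from thinned counts, Cd74 (-0.0769 with 1 cell per clonotype, -0.0149 with at least 2 UMIs, -0.0375 at 2000 to 6000 UMIs, -0.0167 with sides from thinned counts), Ifi27l2a (0.136 with 1 cell per clonotype), Il5 (0.598 with no matching), Nr4a3 (-0.0709 with exactly 1 UMI), Myc (0.187 with sides from thinned counts, 0.0417 thinned), Mcm3 (0.250 same clonotypes, 0.0863 thinned), Tpi1 (0.012 thinned), Dut (0.0287), Pkm (0.0249) and Trbv13-2 (-0.324) within the same clonotypes, and, over the left-out replicates, Igkv1-110 (-0.0002 to 2.07) and Il13 (-1.90 to 0.823), both turned without replicate 2. The cause was not tested. Of the settings tried on the 24 genes of largest change, 185 kept the call, 290 lost it and 1 turned. With 3 replicates on 1 lane and Foxp3 counts mostly of 0 or 1, the sides are an imperfect split, and 0 UMIs does not mark a cell without Foxp3 RNA.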
